A study of Homo sapiens with 2 samples.

Results

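The stress response of the endoplasmic reticulum (ER) was examined in 10 genes for N6-methyladenosine (m6A), the commonest internal modification of messenger RNA. The cells were HCCLM3, an established line from human hepatocellular carcinoma. They were the CREB3 family of membrane-bound transcription factors (CREB3, CREB3L1, CREB3L2, CREB3L3 and CREB3L4), their regulator CREBRF, and the unfolded protein response factors ATF4, ATF6, ATF6B and XBP1. A peak was counted for a gene when its summit, the base of highest enrichment, lay within the gene's RefSeq span on hg38, whatever gene the authors' deposited table named for it. By this rule 22 of the 39801 peaks of the list belonged to the 10 genes. The genes were chosen with earlier results of these data known, including the very high fold of CREBRF, so the peaks below are described and not tested.

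The series is about the CREB coactivator CRTC2 and the m6A reader YTHDF2 in liver cancer. The data were 1 m6A-RIP library, enriched with an antibody against m6A, and 1 input library of the same wild-type HCCLM3 cells, for which no treatment is labelled. Neither had a replicate, so a difference between peaks or genes has no replicate check, and no expression level was measured. A peak shows RNA recovered above input, so a gene without one may be unmethylated, weakly methylated or too low in the RNA to be called.

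The unfolded protein response restores protein folding when unfolded proteins build up in the ER, and secretory cells such as hepatocytes depend on it. IRE1 (encoded by ERN1) splices XBP1 mRNA, PERK (EIF2AK3) phosphorylates eIF2 and so favours translation of ATF4, and ATF6 moves to the Golgi, where site-1 and site-2 proteases release its transcription factor domain. CREB3 family proteins are held in the ER membrane and cut in the same way, and m6A is usually found near stop codons, in 3' UTRs and in long internal exons.

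Of the 10 genes, 7 held at least 1 peak, against 49.3% of 20037 protein-coding genes. A peak with a q-value under 0.05 was present in 6 genes (39.0% of protein-coding genes), and a peak under 1e-5 in 5 genes (28.5%). A 3' UTR label was found in 5 genes (24.6%), which were also the 5 with any exon or UTR label (33.1%). Only CREBRF and ATF6 reached a fold of 4 (30.9% of protein-coding genes did). CREB3, CREB3L4 and ATF6B held none. The fold, RIP signal over input signal at the summit, and the q-values are those of the authors' peak caller. Among the 22 peaks, 14 lay in introns, 6 carried a 3' UTR label and 2 a promoter label. ATF6 alone held 11 of the 14 intron peaks. In the whole list 37.9% of peaks were intronic, 14.4% had a 3' UTR label and 14% a promoter label. Of the 6 peaks with a 3' UTR label 5 had a q-value under 0.05, against 5 of the 14 intron peaks. Over the whole list these shares were 78.6% of 5749 and 33.1% of 15069.

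**Figure D1:**
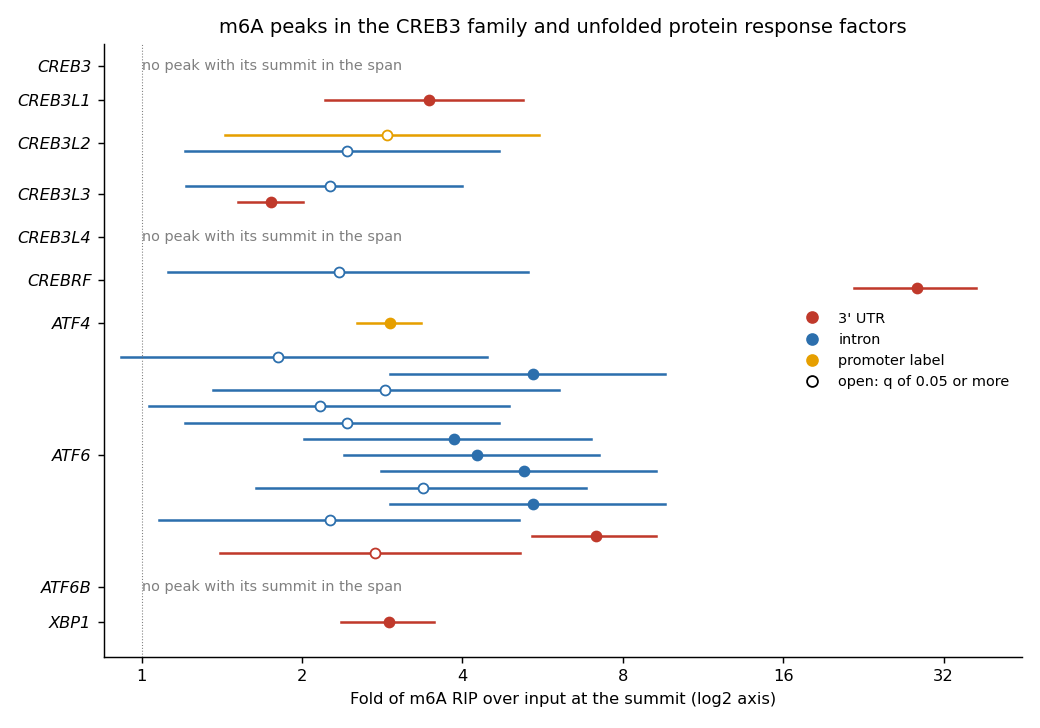
Fold of m6A RIP over input (log2 axis) for each of the 22 peaks, grouped by gene and ordered from the 5' to the 3' end within a gene. Points are single peaks coloured by region label, filled where the q-value was under 0.05, and lines are 95% intervals for counting error in the RIP library alone (exact Poisson). The 3' UTR peak of CREBRF at 28.5 stands apart from the other 21, which range from 1.75 to 7.13.

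CREBRF, a nuclear protein that promotes breakdown of CREB3, held the peak of highest fold in the entire list. It spanned 1025 bp on chromosome 5 from 173090564 to 173091588 and carried a 3' UTR label. Its fold was 28.5 (95% Poisson interval 21.7 to 36.8) on 56 RIP fragments, with a q-value of 2.8e-55. The peak of next highest fold in the list reached 27.1, inside that interval, so the order of the leading peaks is not separated by counting error. The q-value reflects the fragments as well as the fold, and by p-value the CREBRF peak ranked 26.

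The size of that fold came with very little input RNA. The input level is the number of fragments that the caller set against the RIP library at a summit, recovered here from fold and p-value. At this summit it was 0.296 fragments, near the lowest level of the list (0.246). At or below that level lay 15405 peaks (38.7%), and their median was 3 RIP fragments and a fold of 2.35. Only 2 of them had 50 or more RIP fragments. The caller adds a pseudocount of 1 to both sides of the ratio, which holds down the fold where input is low. Without it the CREBRF ratio was 121 and ranked 2 in the list.

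The place of the peak in the gene was also unusual for its label. The summit lay 34.9 kb from the gene's start and 48.0 kb before its annotated end, at 42.1% of an 82.9 kb span. Over 4735 peaks with a 3' UTR label inside a protein-coding gene, the median distance to the gene's end was 2014 bases (quartiles 755 to 4293), and 110 (2.32%) lay at least as far from it as this one. RefSeq lists 8 transcripts for CREBRF, and the deposited label does not say whose 3' UTR it means. The table's label for the other CREBRF peak names a transcript of only 3 introns. Transcript models were not used here, so whether the same bases are coding or intronic in longer CREBRF transcripts was not examined. That other peak lay in intron 1 of 3. Its fold was 2.35 (1.12 to 5.32) on 3 fragments, and its q-value was 1.

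The genes whose strongest peak was most like that of CREBRF, by distance on log2 fold and log2 input level over 9881 protein-coding genes with a peak, were PEPD, NFIA and ITSN2. PEPD had an intron peak of fold 26.9 (20.4 to 34.9) at an input level of 0.326. NFIA and ITSN2 had exon peaks of fold 27.1 (20.4 to 35.3) and 23.5 (17.4 to 31.1). All 3 rested on 46 to 54 RIP fragments.

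**Figure D2:**
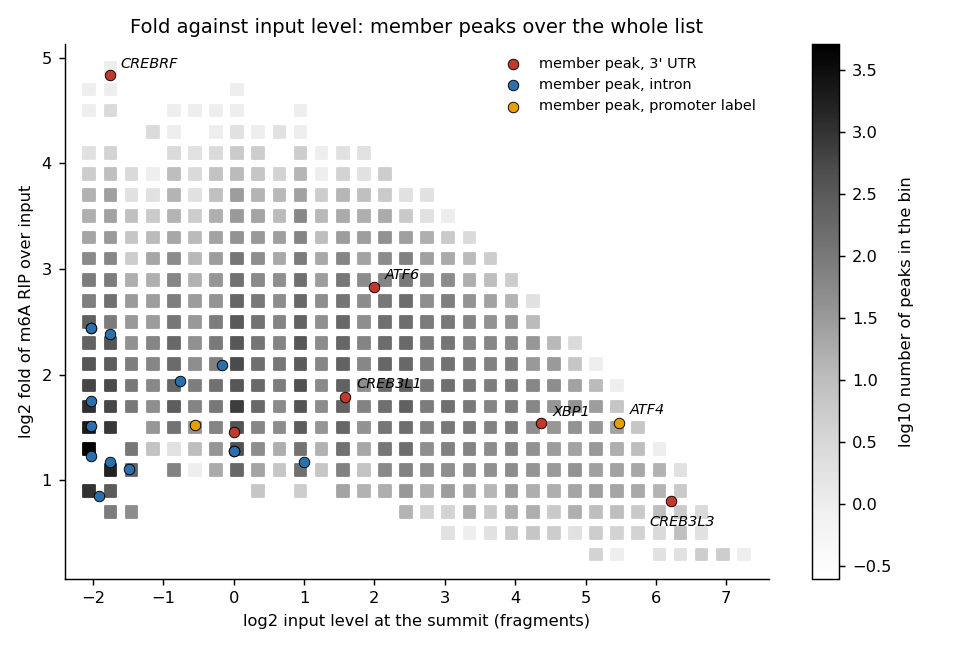
log2 fold of RIP over input against log2 input level at the summit, in fragments. Grey squares give the number of peaks of the whole list per bin on a log10 scale, and circles are the 22 member peaks by region label. CREBRF lies at the top left, at an input level of 0.296, whereas XBP1, ATF4 and CREB3L3 lie at the right, at levels of 20.7 to 74.0 and folds of 1.75 to 2.92.

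The arms of the unfolded protein response that signal through ATF6, XBP1 and ATF4 were each represented by a peak with a q-value under 1e-5. ATF6, the Golgi-cleaved sensor, held 13 of the 22 peaks. Its strongest had a 3' UTR label and lay on chromosome 1 from 161958504 to 161958999. The fold was 7.13 (5.41 to 9.24), with 54 fragments over an input level of 4.0. Its q-value was 1.35e-17. A weaker 3' UTR peak lay 489 bases further on. It rested on 7 fragments, and its fold was 2.75 (1.4 to 5.13) and its q-value 0.885. These intervals leave out the counting error of the input, whose levels were only 4.0 and 1.0 fragments, so a difference between the pair is not shown.

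The other 11 ATF6 peaks lay in introns 6 to 15 of the 15 introns of NM_007348. They rested on 2 to 11 fragments, over input levels of 0.246 to 1.0, and their folds ran from 1.80 to 5.44. Of these, 5 had a q-value under 0.05, from 0.000195 to 0.0174, and they lay in introns 9, 14 and 15. The highest fold among them, 5.44 (2.92 to 9.60), occurred at 2 summits with identical counts of 9 fragments, in intron 9 and intron 15. Intron 14 held 4 peaks with folds of 3.38 to 5.23. The one of fold 3.38 also lay in the pseudogene LOC100422526, and its reads may be shared with copies elsewhere. Every intron interval overlapped the others, and the intervals leave out the counting error of the input. A difference between the intron peaks is therefore not shown. Among 1043 protein-coding genes with spans of 150 to 250 kb, the median was 4 peaks, and 44 (4.22%) held as many as ATF6 or more.

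XBP1, whose spliced mRNA encodes the active factor, held a single peak, with a 3' UTR label, on chromosome 22 from 28794980 to 28795571. Its fold was 2.91 (2.37 to 3.54) on 97 RIP fragments over an input level of 20.7, with a q-value of 1.41e-10. The summit lay 884 bases before the gene's end.

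ATF4, the effector of the eIF2 kinases, also held 1 peak, on chromosome 22 from 39522400 to 39522807. The fold was 2.92 (2.54 to 3.34) on 205 RIP fragments over an input level of 44.4, and the q-value was 2.15e-22. The deposited label was promoter, since any peak within 3 kb of a start gets that label and ATF4 spans only 2.13 kb. The summit lay 153 bases before the gene's end, at 92.8% of the span. The folds of XBP1 and ATF4 could not be told apart at this depth, although ATF4 had more fragments. The strongest ATF6 peak had a fold of 7.13 at an input level of 4.0, whose own counting error the intervals do not cover, so a difference from XBP1 and ATF4 is not shown.

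ATF6B, the paralog of ATF6, held no peak in its 13.0 kb span, and the deposited table named it for none.

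**Figure D3:**
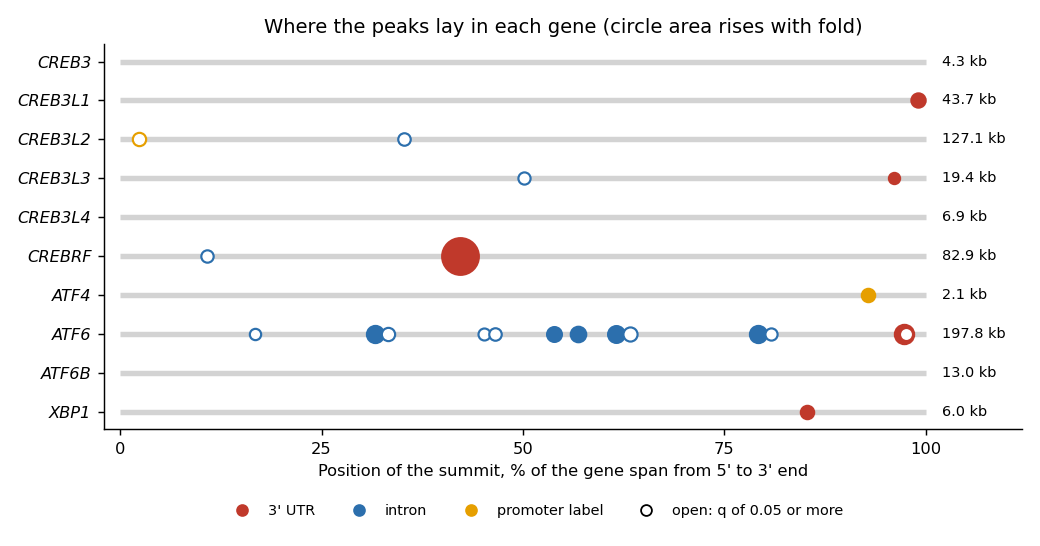
Position of each peak summit along the gene span, in percent from the 5' to the 3' end, with the span in kb at the right. Circle area rises with fold, colour gives the region label and open circles have a q-value of 0.05 or more. In CREB3L1, CREB3L3, ATF4, ATF6 and XBP1 the peak of lowest q-value lies at 85.3% of the span or later, and in CREBRF at 42.1%.

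The CREB3 family itself held 5 peaks, in 3 of its 5 genes, with folds of 1.75 to 3.46. CREB3L3 (CREBH), the liver-enriched member that controls genes of lipid metabolism and the acute phase, had a broad 3' UTR peak of 1075 bp on chromosome 19 from 4171948 to 4173022. It was well covered, with 203 RIP fragments over an input level of 74.0, and its q-value was 1.65e-06. The fold was 1.75 (1.52 to 2.01), the lowest value of the 22. The input level was the highest of the 22 and far above the median of 3.55 in 3' UTR peaks. A second CREB3L3 peak, in intron 4 of 9, rested on 9 fragments. Its fold was 2.26 (1.21 to 3.99) and its q-value 1.

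CREB3L1 (OASIS), known for its role in collagen secretion by bone cells, had 1 peak, with a 3' UTR label on chromosome 11 from 46320941 to 46321252. Its fold was 3.46 (2.21 to 5.20) on 20 fragments, with a q-value of 0.00842, and its summit lay 403 bases before the gene's end. CREB3L2 (BBF2H7), which controls secretory genes in cartilage, held 2 peaks, neither distinguishable from input after the caller's correction. Both rested on 6 fragments with a q-value of 1. They were a peak of fold 2.42 (1.21 to 4.69), which also lay in the antisense gene CREB3L2-AS1, and a promoter-labelled peak of fold 2.89 (1.44 to 5.58) 2.96 kb inside the gene.

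CREB3 (Luman), the founding member, and CREB3L4 (AIbZIP), described in prostate, held no summit. CREB3 was missed narrowly. A 3' UTR peak of fold 2.86 (2.10 to 3.82, 43 fragments, q-value 0.000233) overlapped its last 273 bases, with a summit 67 bases beyond its end, in GBA2. The ends of CREB3 and GBA2 overlap and the table gives no strand, so these genes cannot be told apart there. Just inside the rule, the ATF4 summit lay 153 bases from the gene's end.

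The deposited table named the member gene for 15 of the 22 peaks. It named OLFML2B for 4 ATF6 peaks, among them the strongest, DGKZ for the CREB3L1 peak, SIRT6 for the CREB3L3 3' UTR peak and CREB3L2-AS1 for 1 CREB3L2 peak. Conversely, it named ATF4 for a peak of fold 6.01 (4.66 to 7.63) that lay in the 3' UTR of MIEF1, 6.6 kb from ATF4. It also named XBP1 for 3 intergenic peaks 11.8 to 32.9 kb away, none with a q-value under 0.05.

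No peak overlapped the 300 bases around any of the 13 RefSeq start sites of the 10 genes (250 before and 50 after the start). Most of each window lies before the start, and the share of all start windows with a peak was not computed. The absence is therefore not read as a trait of these genes. These factors bind short DNA elements, and ATF6 is known to induce XBP1 through one. The elements found in those windows are shown for orientation, 5' to 3' on the gene's strand, with the matched bases in capitals. They are RefSeq sequences of GRCh38.p14. The peaks carry no information on them.
XBP1, ER stress response element, chr22:28800599-28800625, minus strand: ctggCCAATcgcggagggCCACGaccg
ATF6, TGACGT, chr1:161766199-161766220, plus strand: ttagtctcTGACGTtttcctgt
CREB3L2, TGACGTCA, chr7:138002250-138002273, minus strand: ttcctcggTGACGTCAcagacact

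The ER stress response element, which ATF6 binds with NF-Y, was searched as CCAAT and CCACG separated by any 9 bases, on both strands. It was present in 23 of 22199 protein-coding start windows (0.104%). TGACGT, the core that CREB3 family proteins, ATF6 and XBP1 recognise, was present in 8.94% of windows, and the full palindrome TGACGTCA of the cAMP response element, which contains it, in 2.26%. The elements shown lie 52 (XBP1), 113 (ATF6) and 179 bases (CREB3L2) before the start. A match describes these letters only and is not a bound site.

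The wider pathway was followed in 88 genes in 6 lists, written with earlier results of these data known. Of these, 62 (70.5%, 95% Wilson interval 60.2 to 79.0) held a peak and 57 (64.8%) held 1 with a q-value under 0.05. For reference, the shares over protein-coding genes were 49.3% and 39.0%. A fold of at least 4 was reached by 28 of the 88, and by 30.9% of protein-coding genes. The lists were not matched on expression or gene length, and the part of either in these shares was not tested. The median of the best folds was 3.91 over these 62 genes, 2.92 over the 7 member genes with a peak, and 4.73 over all 9881 protein-coding genes with a peak.

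**Figure D4:**
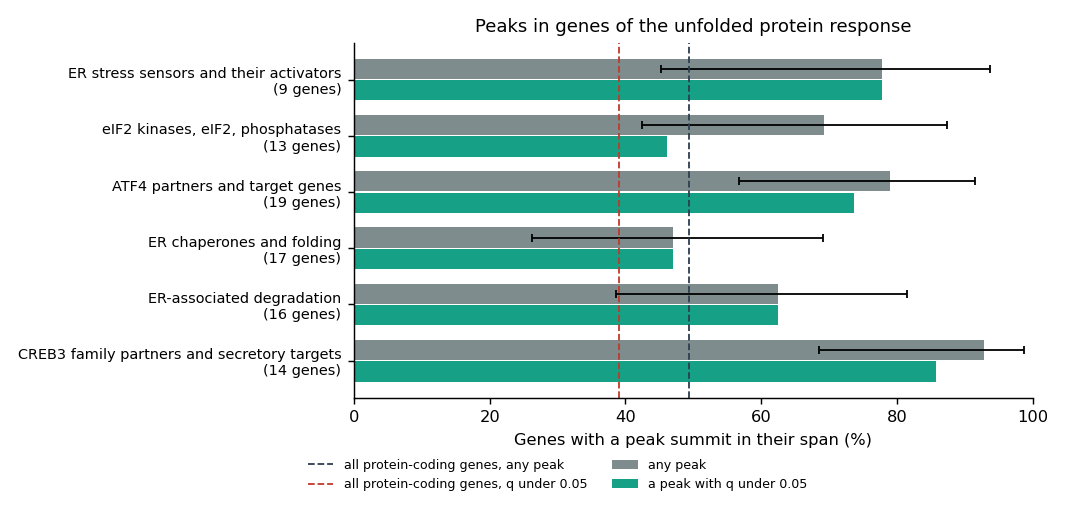
Share of genes with a peak summit in their span (percent) in each of 6 pathway lists. Grey bars count any peak, with 95% Wilson intervals, green bars count genes with a peak of q under 0.05, and dashed lines mark the shares over all protein-coding genes, 49.3% and 39.0%. ER chaperones have the lowest share with any peak (47.1%) and CREB3 partners and secretory targets the highest (92.9%).

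Among the stress sensors and the enzymes that act on them, 7 of 9 genes (77.8%) held a peak, all with a q-value under 0.05. Over protein-coding genes these shares were 49.3% and 39.0%. EIF2AK3, the PERK kinase, reached a fold of 8.83 (7.04 to 10.9) in an exon that also lies under the antisense gene EIF2AK3-AS1. MBTPS1 and MBTPS2, the proteases that cut ATF6 and CREB3 proteins, reached 6.83 (5.39 to 8.56) and 5.63 (3.38 to 8.94). ERN2 and RTRAF held none.

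Genes of eIF2 signalling upstream of ATF4 held a peak in 9 of 13 cases (69.2%, against 49.3% of protein-coding genes). In 6 of the 13 (46.2%, against 39.0%) a peak had a q-value under 0.05. The amino acid sensor EIF2AK4 (GCN2) led with 6.78 (5.43 to 8.38), followed by the exchange factor subunit EIF2B3 with 5.63 (3.43 to 8.83). The phosphatase subunit PPP1R15B, which reverses eIF2 phosphorylation, had 4.84 (3.97 to 5.85). EIF2AK1, EIF2B2 and EIF2B4 were among the 4 without a peak.

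Of 19 ATF4 partners and targets, 15 (78.9%, against 49.3% of protein-coding genes) held a peak. In 14 of the 19 (73.7%, against 39.0%) a peak had a q-value under 0.05. PSAT1, of serine synthesis, reached 8.68 (6.61 to 11.2), CHAC1, a glutathione-degrading enzyme, 8.53 (6.48 to 11), and the lipoprotein receptor VLDLR 7.70 (4.56 to 12.4) at a site shared with the gene LOC105375957. ATF3, MTHFD2 and PHGDH were among the 4 without one.

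The secretory machinery downstream of ATF6, XBP1 and the CREB3 family was followed in 3 lists, whose shares have overlapping Wilson intervals. Of 17 ER chaperone and folding genes 8 (47.1%, against 49.3% of protein-coding genes) held a peak, each with a q-value under 0.05. The co-chaperones DNAJB9 (11.8, 8.98 to 15.3), SDF2L1 (9.32, 6.81 to 12.5) and DNAJC3 (5.98, 3.48 to 9.77) had the highest folds, and CANX, CRELD2 and DNAJB11 were among the 9 without. In ER-associated degradation, which removes misfolded proteins, 10 of 16 genes (62.5%) held a peak, all with a q-value under 0.05. SEL1L reached 10.3 (8.47 to 12.5), DERL2 10.2 (7.54 to 13.5) and DERL1 5.17 (3.19 to 8.02), while DERL3 and EDEM1 were among the 6 without. Of 14 CREB3 family partners and secretory targets 13 (92.9%) held a peak, 12 (85.7%) with a q-value under 0.05. The glucocorticoid receptor NR3C1 reached 7.26 (6.02 to 8.69), the Golgi matrix gene GOLGA2 6.39 (4.47 to 8.90) at a site shared with SWI5, and the coat gene SEC31A 6.10 (4.52 to 8.07) at a site shared with THAP9-AS1. ARF4 held none.

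A comparison is offered by the CREB1 branch of the same superfamily, taken with CRTC coactivators and SIK kinases, which are outside that superfamily. CREB1, CREM, ATF1, the 3 CRTC coactivators and the 3 SIK kinases held 44 peaks, with at least 1 in each of the 9 genes (49.3% of protein-coding genes) and 1 with a q-value under 0.05 in 8 (39.0%). Their best folds ran from 3.45 to 12.4 with a median of 8.84. The best summits of CREB1, CRTC3, SIK2 and SIK3 also lay in METTL21A, CRTC3-AS1, PPP2R1B and APOA1-AS, respectively. Input levels at these best peaks ran from 0.592 to 10.1. Among the genes described here, the best peaks of XBP1 and ATF4 lay above that range, at 20.7 and 44.4. That of CREBRF lay below it, at 0.296. Those of CREB3L2, CREB3L3, CREB3L1 and ATF6 lay inside it, at 0.681, 2.0, 3.0 and 4.0. The 2 sets were not matched on input level, and its part in the folds was not tested. A fold of 4 was reached by 6 of the 9, by 2 of the 10 genes described here and by 30.9% of protein-coding genes. With 1 library on each side this difference was not tested, and it rests on genes picked in both cases.

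As a check of the cell line, peaks were looked up in marker genes. They were present in the hepatocyte genes APOB and HNF4A, in none of 4 immune genes and in 1 of 4 endothelial and stromal genes (PECAM1). ALB, APOA1 and TTR held none, and a peak list does not show whether they were expressed.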

How the data were processed

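Per the labels, RNA of HCCLM3 cells was captured with a Magna RIP kit and sequenced from SMARTer stranded total RNA libraries. HISAT2, MACS2 and hg38 are named in the submitters' processing notes, without versions. For the caller's settings, nothing is stated in the labels. The peak table that the authors deposited gives, for each peak, a fold (the ratio of RIP to input), a score and columns taken as −log10 p-value and −log10 q-value. The latter 2 headers were damaged. For 99.99% of peaks the deposited score is 10 times the −log10 p-value rounded down.

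Fold and p-value together gave back the RIP fragments and input level of a summit. The fold was taken as scaled fragments plus 1 over input plus 1, and the p-value as the upper tail of a Poisson distribution. A scaling factor of 0.642 met both for 100% of peaks within 0.001, with 1 solution for 98.2% of all peaks and for each of the 22 member peaks. Fragments were recovered for 100% of 2000 simulated peaks. These were made with the same formula and scaling factor, so they check the solving step and not the formula. Library totals are not stated. Intervals are exact 95% Poisson or 95% Wilson intervals and cover counting error only, since PCR copies are not independent molecules.

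Gene spans came from RefSeq GRCh38.p14, which shares its main chromosomes with hg38. All 10 genes and all 88 pathway genes matched. Members, lists and rules were chosen with earlier results of these data known. Named genes were all members, up to 3 genes of highest fold and 3 without a peak per list, and the 3 genes most like CREBRF. Some listed genes are not reported here. No test was made. Python 3.11.15, pandas 2.3.3 and SciPy 1.17.1 were used. Alternatives covered the assignment of peaks, q-value, fold, region and fragment minimums, and the pseudocount.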

Additional observations from a re-analysis of the deposited data

How the results depend on the processing

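Of 36 alternative values, 23 stayed within 1.5 times the count or inside the counting interval and 13 moved. At a fold of at least 4, 2 of 10 members and 28 of 88 pathway genes were left, against 30.9% of protein-coding genes. The same cut left 6 member peaks (27.3%, against 33.9% of all peaks). With exon and UTR labels only, 6 member peaks were left, and 40 of 88 pathway genes, against 33.1% of protein-coding genes. The 22 member peaks fell to 11 at a q-value under 0.05 and to 5 under 1e-5. The median of the members' best folds was 4.59 by the deposited gene and 4.28 without the pseudocount, and the highest fold was 121 without it. The deposited gene credits ATF4 with the MIEF1 peak of fold 6.01 and XBP1 with an intergenic peak of fold 3.74. It leaves out CREB3L1 and the ATF6 peak of fold 7.13. With at least 10 RIP fragments, 7 peaks were left, of which 100% had a q-value under 0.05 and 71.4% lay in exons or UTRs. That last share was 80.0% at a q-value under 1e-5, and 27.3% of the 22 member peaks without a cut. The shares over all peaks under the same cuts were not computed. The rise under these cuts is therefore not read as a trait of the member genes. Counting any overlap added CREB3, for 8 members. No paired analysis was possible because each group has 1 library. The median was 6 RIP fragments in intron peaks and 32 in 3' UTR peaks of the whole list. A minimum of 10 fragments therefore takes out a larger part of the intron peaks than of the 3' UTR peaks of that list.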

Other observations

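Among the 62 pathway genes with a peak, fold was lower where input level was higher. Input is the denominator of the fold, and the part of that in this relation was not tested. At an input level over 40 the best peaks of 8 genes, named here after their values were seen, had folds of 1.5 to 2.03. They were PPP1R15A, VCP, P4HB, CALR, CEBPB, HSPA5, PDIA4 and TRIB3, of which HSPA5 (BiP), CALR, P4HB and PDIA4 encode abundant ER folding proteins. At levels of 10 to 40 the median was 3.35 over 18 genes, and under 10 it was 5.12 over 36 genes. Over all peaks of the list the medians were 2.0, 3.24 and 3.38 in the same classes. These count every peak and not only the best of each gene, so the 2 sets of medians are unlike measures. The CREB3L3 and ATF4 peaks, at input levels of 74.0 and 44.4, had folds of 1.75 and 2.92, and the 264 peaks of the list in that class reached at most 3.55.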
